A study of Bos taurus with 8 samples.

Results

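Hypoxia response genes were described in the liver of bovine fetuses whose dams received a low (LN group) or a high (HN group) level of nutrition. The 10 genes were chosen for their known role: HIF1A, EGLN1, EGLN3, VEGFA, ADM, BNIP3, PDK1, PFKFB3, PFKFB4 and SLC2A1. They were found on the array through the RefSeq accession of each probe, which gave 25 probes, of which 24 were detected. All 10 genes had at least 1 detected probe, out of 10860 genes detected in all. The question asked of them was whether their transcript levels differed between the LN and HN fetal liver.

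Cells sense oxygen through prolyl hydroxylases, which use oxygen to mark the alpha subunits of hypoxia-inducible factor (HIF) for destruction. When oxygen is scarce the alpha subunit persists, pairs with ARNT and switches on genes for glucose uptake, glycolysis, vessel growth and the clearing of mitochondria. Much of this control acts on the HIF protein, which an RNA array does not measure. The fetal liver works at a low oxygen tension and is at the same time a site of blood cell formation.

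The LN dams were fed 60% and the HN dams 120% of their nutritional requirement during gestation, and no group fed exactly its requirement was part of these samples. Liver was taken from 4 LN and 4 HN Japanese Black fetuses at 8.5 months after conception (about day 260 of gestation) and hybridised to 1-colour Agilent bovine arrays. The study's methods state that these were the lightest fetuses of LN and the heaviest of HN. The sample labels give 1 fetus for each array, whereas the series text mentions pooled RNA, so each array is taken here to be a separate fetus (L5, L6, L8 and L9 in LN, and L1, L2, L3 and L10 in HN). Both groups shared breed, tissue and age, and differed in the diet of the dam and in body weight. The study reports a lower body weight of LN over all its fetuses too, before this picking.

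Arrays of the LN group were on 1 slide, those of the HN group on a second one, and each slide had its own scan, so in any difference given here group, slide and scan cannot be told apart. Each array held 43803 spots, of which 32635 to 33371 (LN) and 33254 to 34369 (HN) gave a signal well above background and 0 were saturated. The number of arrays, 4 against 4, limits the precision. Levels are given as the quantile normalized log2 signal of a probe, differences are LN minus HN, and a difference of 1 is 2-fold. A gene is given by its brightest detected probe, and between genes brightness, which also depends on the probe itself, served only to choose which markers to name. Hepatocyte markers were bright, as in liver, with TF (transferrin) and TTR (transthyretin) the brightest and ALB (serum albumin) between 17.81 and 17.89 on all 8 arrays, and APOB, which had no matched probe, was the only marker of the 10 listed that was not measured. In whole tissue, fewer cells of a type and less RNA per cell cannot be told apart.

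By limma, 0 of the 10 hypoxia response genes passed an adjusted p of 0.05, and the share of all detected genes that did was 0%. At an unadjusted limma p of 0.05, 2 of the 10 lay past the threshold (HIF1A and SLC2A1), against 6.05% of all detected genes. The same 2 were the ones in which every LN fetus lay above every HN fetus, a pattern that 2.59% of all detected genes showed (in 4.14% the groups were apart in either direction, in 1.56% with LN below HN). The LN mean was higher for 7 of the 10 genes and lower for 3, against 51.6% and 48.4% of all genes. Over the 10 genes the median log2 difference was 0.25, with a range from -0.26 to 0.62, beside a median of 0.0075 over all detected genes. The median of the 10 was 0.13 with 75th percentile scaling and 0.17 with normexp background correction. For 8 of the 10 genes the 95% interval of the difference held 0. Its half-width ran from 0.22 to 1.14 on the log2 scale and was widest for PFKFB4, where even a 2-fold difference was not detectable.

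**Figure D1:**
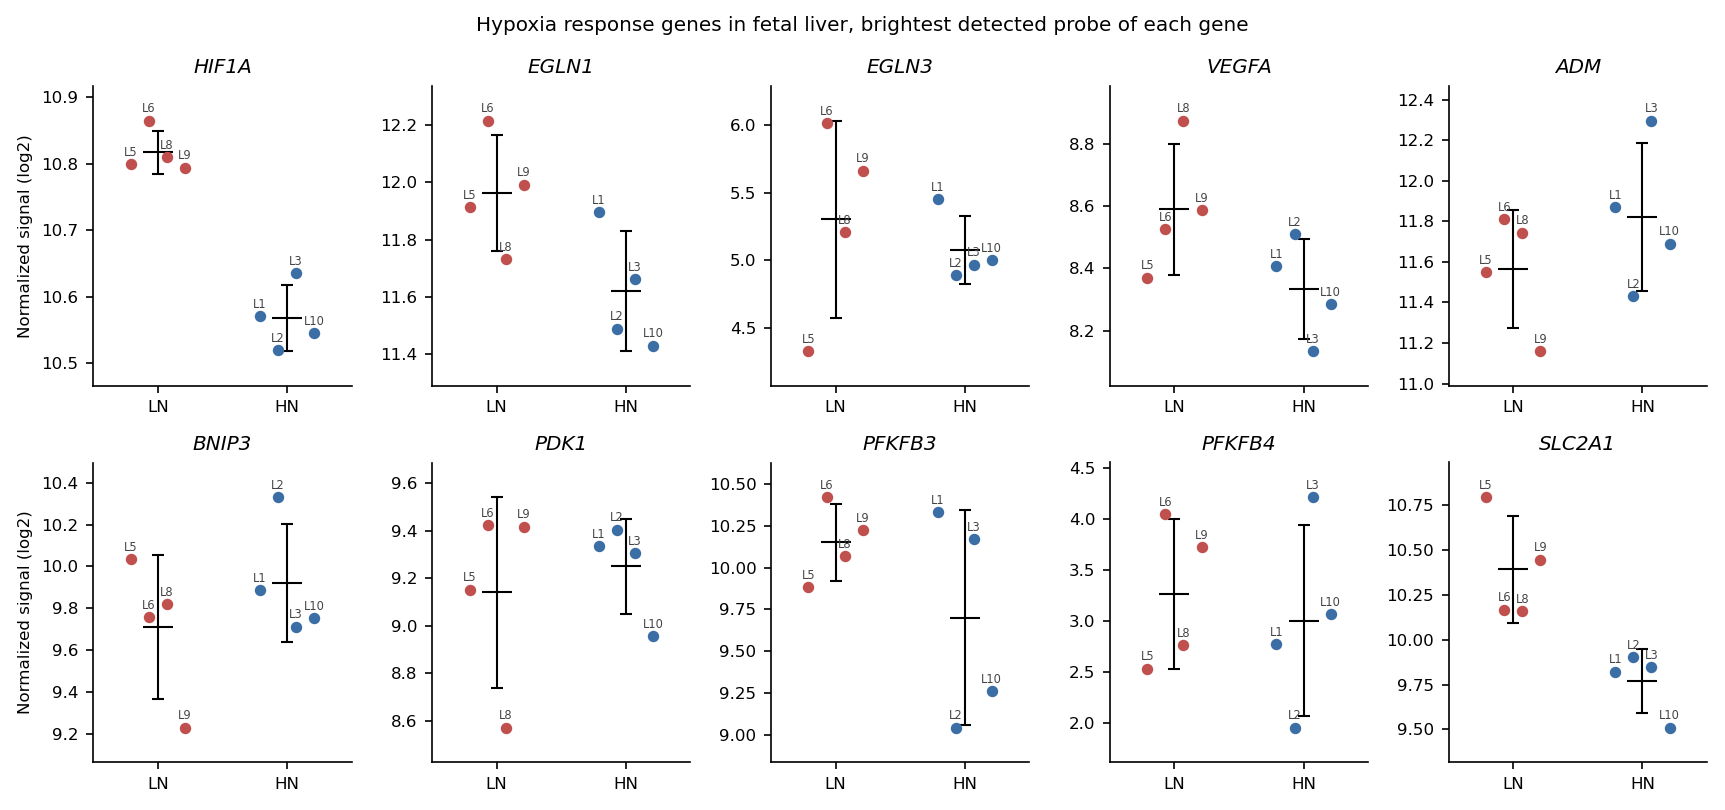
Normalized log2 signal of each of the 10 hypoxia response genes (y axis, brightest detected probe, 1 panel per gene, each with its own scale) in 4 LN and 4 HN fetuses (x axis). Each point is a fetus, and the bars are the group mean and SD. Only in the panels of HIF1A and SLC2A1 do the LN points all lie above the HN points.

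HIF1A encodes the oxygen-regulated subunit of HIF-1, the transcription factor of this response. Its brightest probe (NM_174339) read 10.80, 10.87, 10.81 and 10.79 in LN fetuses L5, L6, L8 and L9, and 10.57, 10.52, 10.64 and 10.55 in HN fetuses L1, L2, L3 and L10. Every LN fetus lay above every HN fetus, and neither group spread widely. The means were 10.82 ± 0.03 and 10.57 ± 0.05 (SD, n = 4 each), a log2 difference of 0.25 (standard error, SE, 0.098, limma adjusted p = 0.782, exact permutation p = 0.0286). This exact p is the smallest that 4 fetuses against 4 can give. The difference corresponds to a 1.19-fold higher level in LN.

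HIF1A had 2 more detected probes, and in both the groups were again apart. The brighter of them differed by 0.22 on the log2 scale (SE 0.11, limma adjusted p = 0.787). The dimmer one read 6.41, 5.99, 6.26 and 6.11 in LN against 5.74, 5.64, 5.37 and 5.62 in HN, a difference of 0.60 (SE 0.14, limma adjusted p = 0.734). The probes thus gave the same order of the groups and different sizes. The brightest probe's difference, recomputed without each fetus, stayed between 0.23 and 0.27. Its unadjusted limma p, 0.031 with all fetuses, was above 0.05 when any fetus but L3 was left out, between 0.051 and 0.072, and it was 0.097 with slide position as a block.

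EGLN1 and EGLN3 encode prolyl hydroxylases that inactivate HIF, and both are themselves induced by HIF. EGLN1 (NM_001206046) read 11.91, 12.22, 11.73 and 11.99 in LN and 11.90, 11.49, 11.66 and 11.43 in HN. The LN values were mostly the higher ones, but HN fetus L1 lay above LN fetus L8, so the groups overlapped. The means were 11.96 ± 0.20 and 11.62 ± 0.21 (SD, n = 4 each), with a log2 difference of 0.34 (SE 0.15, limma adjusted p = 0.785, exact permutation p = 0.0571). The other 2 detected probes of EGLN1 differed by 0.28 and 0.23, in the same direction and with overlap. Without HN fetus L1 the difference was 0.44, and without LN fetus L6 it was 0.26.

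EGLN3 (NM_001101164), with 1 probe, read 4.33, 6.02, 5.21 and 5.67 in LN and 5.45, 4.89, 4.97 and 5.00 in HN. LN held both the highest and the lowest fetus, and its SD of 0.73 stood beside 0.25 in HN. The log2 difference was 0.23 (SE 0.33, limma adjusted p = 0.929, exact permutation p = 0.571). It was -0.0097 without L6 and 0.55 without L5, so its direction rested on single fetuses. With 75th percentile scaling it was 0.033.

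VEGFA and ADM encode secreted factors of the hypoxia response: VEGFA drives the growth of vessels, and ADM (adrenomedullin) widens them. VEGFA (NM_174216) read 8.37, 8.53, 8.87 and 8.59 in LN and 8.41, 8.51, 8.13 and 8.29 in HN. LN fetus L8 was the highest and the groups overlapped through L5, the lowest LN fetus. LN and HN differed by 0.26 (SE 0.14, limma adjusted p = 0.799, exact permutation p = 0.114). Its other probes differed by 0.26 and 0.085. Without L8 the difference of the brightest probe was 0.16, and without L5 it was 0.33.

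ADM (NM_173888) had the most negative difference of the 10 genes. It read 11.55, 11.81, 11.74 and 11.16 in LN and 11.87, 11.43, 12.30 and 11.69 in HN. HN fetus L3 was the highest and LN fetus L9 the lowest, with the other 6 fetuses mixed between them. On the log2 scale the difference was -0.26 (SE 0.21, limma adjusted p = 0.860, exact permutation p = 0.343), and the second probe gave -0.21. The difference of the brightest probe was -0.097 without L3 and -0.39 without L2. VEGFA and ADM, both HIF targets, thus lay on opposite sides of 0 with intervals that held 0.

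BNIP3 encodes a mitochondrial outer membrane protein that marks mitochondria for removal. Its brightest probe (NM_001076366) read 10.04, 9.76, 9.82 and 9.23 in LN and 9.89, 10.33, 9.71 and 9.75 in HN. The lowest fetus was L9 of LN and the highest L2 of HN. LN and HN differed by -0.21 (SE 0.21, limma adjusted p = 0.884, exact permutation p = 0.457), by -0.050 without L9 and by -0.32 without L5. The second probe, which varied less between fetuses, differed by 0.020, with a 95% interval from -0.22 to 0.26. BNIP3 and PFKFB3 were the 2 genes whose probes pointed in both directions.

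PDK1, PFKFB3, PFKFB4 and SLC2A1 act on the use of glucose. PDK1 encodes a kinase that inactivates pyruvate dehydrogenase and so keeps pyruvate from being oxidized in the mitochondrion. It (NM_001205957) read 9.15, 9.42, 8.57 and 9.42 in LN and 9.33, 9.40, 9.30 and 8.96 in HN. LN fetus L8 was the lowest and HN fetus L10 the next, and the other 6 fetuses lay between 9.15 and 9.42. The log2 difference was -0.11 (SE 0.21, limma adjusted p = 0.944, exact permutation p = 0.714), its other probes gave -0.15 and -0.058, and without L8 it was 0.081.

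PFKFB3 and PFKFB4 encode enzymes that make fructose 2,6-bisphosphate, the activator of glycolysis. PFKFB3 (NM_001077837) read 9.88, 10.42, 10.07 and 10.23 in LN and 10.33, 9.04, 10.17 and 9.26 in HN. HN fetuses L2 and L10 lay below every other fetus, while L1 and L3 lay among the LN fetuses. On the log2 scale the difference was 0.45 (SE 0.30, limma adjusted p = 0.827, exact permutation p = 0.314). Its dimmest probe followed the brightest over the fetuses (Pearson r = 0.89, n = 8) and differed by 0.39, whereas the remaining one did not follow it (r = 0.16) and differed by -0.043. Without L2 the difference of the brightest probe was 0.23, and without L1 it was 0.66.

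PFKFB4 (NM_001192835) lay close to the background. Of its 2 probes, 1 was at background on all 8 arrays, and the other was above it on 2 LN and 3 HN arrays. That probe read 2.53, 4.05, 2.77 and 3.73 in LN and 2.78, 1.95, 4.22 and 3.07 in HN, with both groups spread over the same range. The log2 difference was 0.26 (SE 0.50, 95% interval from -0.87 to 1.40, limma adjusted p = 0.944, exact permutation p = 0.686). It was -0.086 without L2, and 0.0061 with 75th percentile scaling.

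SLC2A1 encodes GLUT1, the glucose transporter of erythrocytes, vessels and many fetal cells. Its brightest probe (NM_174602) read 10.79, 10.17, 10.16 and 10.45 in LN and 9.82, 9.90, 9.85 and 9.51 in HN. Every LN fetus lay above every HN fetus, with L5 the highest of LN and L10 the lowest of HN. The means were 10.39 ± 0.30 and 9.77 ± 0.18 (SD, n = 4 each), a log2 difference of 0.62 (SE 0.17, 95% interval from 0.23 to 1.01, limma adjusted p = 0.760, exact permutation p = 0.0286), or 1.54-fold. This was the largest difference among the 10 genes and did not pass the adjusted threshold.

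The other 2 probes of SLC2A1 also had every LN fetus above every HN fetus. The second read 7.09, 6.27, 6.43 and 6.56 in LN against 6.01, 6.08, 5.74 and 5.53 in HN, a log2 difference of 0.75 (SE 0.20, limma adjusted p = 0.760), or 1.68-fold. The dimmest read 4.54, 4.42, 4.27 and 4.23 against 3.61, 3.46, 3.93 and 3.15, a log2 difference of 0.83 (SE 0.17, limma adjusted p = 0.723), or 1.77-fold. That adjusted p was the lowest of all 24 detected probes of the 10 genes. The difference of the brightest probe was 0.49 without L5 and at most 0.70 when another fetus was left out.

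**Figure D2:**
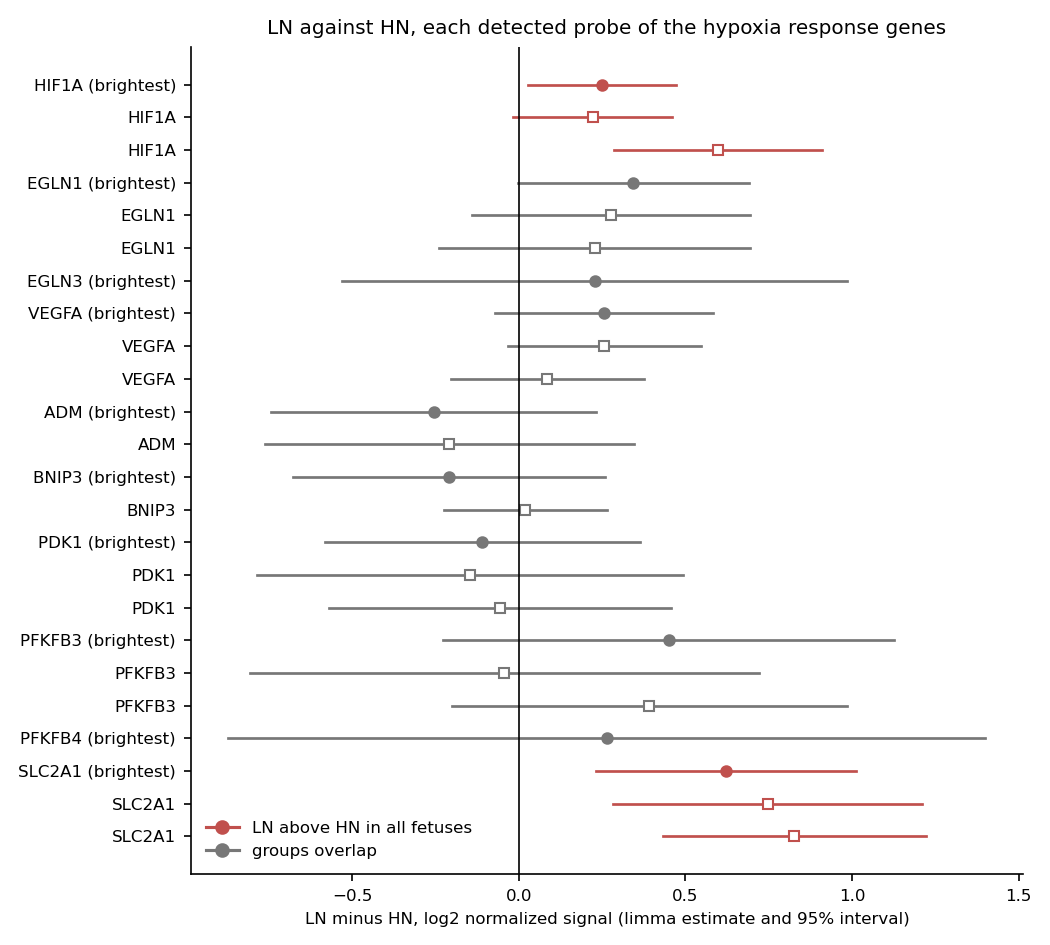
Log2 difference between LN and HN (x axis, LN minus HN, limma estimate with its 95% interval) of each of the 24 detected probes of the hypoxia response genes (y axis). Filled circles are the brightest probe of a gene, open squares its other probes, and red marks probes whose LN fetuses all lay above the HN fetuses. The 3 probes of HIF1A and the 3 of SLC2A1 are the red ones, 6 of 24.

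Over all 24 detected probes, 17 had a higher mean in LN and 7 a lower mean, against 50.3% of all 33439 detected probes with a higher mean. In 6 probes the groups did not overlap, all with LN above HN, against 2.44% of all detected probes with LN above HN and 4.13% in either direction. Of the 8 genes with more than 1 detected probe, the probes of 6 pointed the same way. These probes share a target and are not independent of each other.

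The fetuses did not order the 10 genes alike. As the mean of the standardized levels of the 10 genes (in SD from the mean of all 8 fetuses), LN fetus L6 was the highest at 0.80 and L9 followed at 0.25. LN fetuses L5 and L8, at 0.021 and 0.060, lay beside HN fetuses L1 and L3, at 0.070 and 0.029, and only HN fetuses L2 and L10, at -0.49 and -0.74, lay below them. L6 was the highest fetus for HIF1A, EGLN1, EGLN3, PDK1 and PFKFB3, but not for SLC2A1, where L5 led, or VEGFA, where L8 led. Without L6 the median difference of the 10 genes was 0.12 in place of 0.25.

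**Figure D3:**
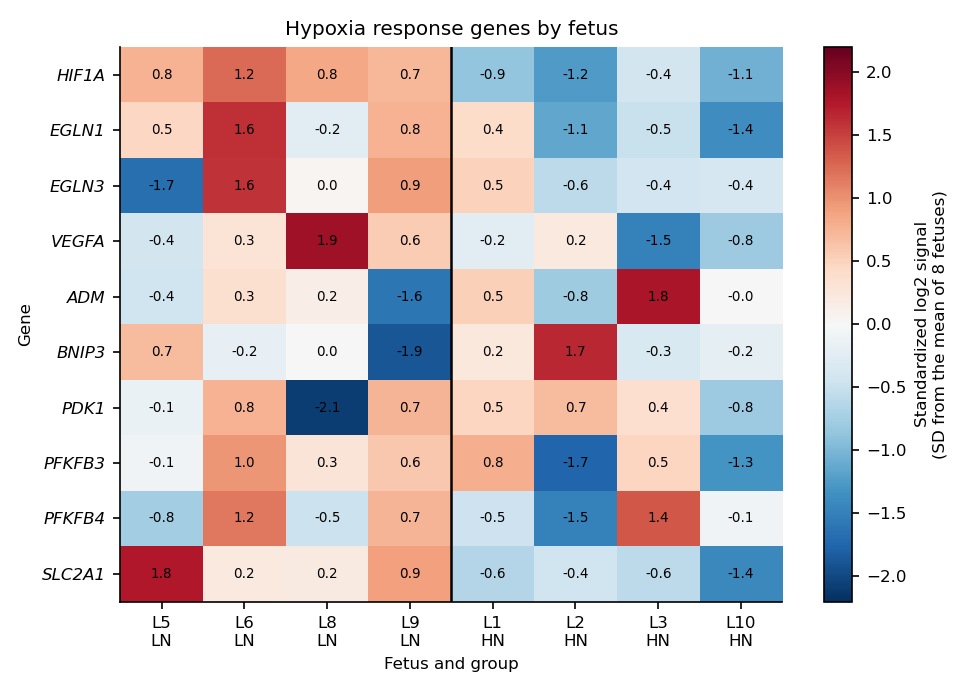
Standardized log2 signal (colour and number, in SD from the mean of 8 fetuses) of the 10 hypoxia response genes (rows) in each fetus (columns, LN to the left of the line, HN to the right). The row of HIF1A is positive in all LN and negative in all HN fetuses, as is that of SLC2A1, while ADM, BNIP3 and PDK1 mix the groups.

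Among the 45 pairs of the 10 genes, Pearson's r over the 8 fetuses was above 0 for 26, with a median of 0.14. The fetuses share the array and its scaling, and the difference between the groups adds to each r, so it is given only as a description. The highest r was that of EGLN1 and PFKFB3, at 0.82, and it was 0.78 after the group means were removed. HIF1A and SLC2A1 had an r of 0.76, which became -0.20 once the group means were removed. Within the groups HIF1A varied little (SD 0.033 in LN and 0.050 in HN). Its r with group means removed, here and below, thus cannot show whether levels moved together. HIF1A and EGLN1 went from 0.78 to 0.55. With the group means removed the highest r was that of HIF1A and ADM, which went from -0.16 to 0.89, and HIF1A and PFKFB4 went from 0.40 to 0.82. BNIP3 and PFKFB4 had the lowest r, at -0.74. EGLN3, BNIP3 and PFKFB4 also followed the brightness of the array (log2 of its 75th percentile of intensity), with r of -0.77, 0.77 and -0.82, and the other members had r between -0.36 and 0.23. With brightness as a covariate the log2 differences were 0.11 for EGLN3, -0.14 for BNIP3 and 0.073 for PFKFB4, beside 0.23, -0.21 and 0.26 without it, and 0 of these passed the limma test in either fit.

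Of 10850 other detected genes, those with the pattern over fetuses most like the mean of the 10 were GOLGA7, AEBP2, TMEM67, EIF3D and MED31, with r between 0.96 and 0.97 over 8 fetuses. They were picked as the highest of 10850 values of r over only 8 fetuses. How high an r such a search gives without any link was not tested.

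Blood cell markers also differed between the fetuses. Erythroid markers, of which 8 of 12 were detected, had a mean log2 signal of 10.54, 7.85, 7.09 and 7.61 in L5, L6, L8 and L9 and of 6.20, 7.03, 7.98 and 7.44 in L1, L2, L3 and L10. L5, the LN fetus with the highest SLC2A1, stood far above all others, with its globin genes HBA at 16.83 and HBB at 14.01, while the other 7 fetuses overlapped. Among the listed erythroid genes, SLC4A1, KLF1, HEMGN and EPB42 were not detected on at least 4 arrays. Over 8 fetuses SLC2A1 and this list had an r of 0.71, and without L5 it was 0.22. Without L5 the difference in SLC2A1 was 0.49, beside 0.62 with it. The part of erythroid cells in this difference was not tested.

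Neutrophil markers, of which 9 of 10 were detected and CSF3R had no matched probe, had a mean of 9.25, 10.06, 9.67 and 10.47 in LN and of 8.34, 9.46, 9.48 and 8.31 in HN. Of the 9, 8 had a higher mean in LN (51.6% of all genes) and 4 lay past an unadjusted limma p of 0.05 (6.05% of all genes), but 0 passed the adjusted threshold. The brightest of them, S100A12 and the antimicrobial peptide CATHL1, differed by 0.48 and 1.27 on the log2 scale. The member with a lower mean in LN, LTF (lactoferrin), differed by -0.22. The lowest p in the list were those of MPO, the granule peroxidase, with a difference of 1.32, and CATHL4, another antimicrobial peptide, with 1.78. SLC2A1 and the neutrophil list had an r of 0.58 over 8 fetuses and of 0.90 without L5, and HIF1A and this list had an r of 0.70. A difference between the groups adds to these r too, and group means were not removed from any r with a marker list. The list overlapped between the groups, with LN fetus L5 below HN fetuses L2 and L3, and the part of these cells in the SLC2A1 and HIF1A differences was not tested.

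Immediate early genes, which respond to handling of tissue as well as to other stimuli, had a mean of 10.68, 11.15, 12.55 and 11.56 in LN and of 11.32, 11.85, 10.30 and 10.94 in HN. All 10 were detected (JUN and FOSB the brightest), 9 with a higher mean in LN against 51.6% of all genes, and 0 past an unadjusted limma p of 0.05 against 6.05%. VEGFA and this list had an r of 0.93, the highest of the 90 correlations between the 10 genes and the 9 marker lists. Others far from 0 were VEGFA with lymphocyte markers (-0.87), PFKFB4 with stellate and mesenchymal markers (-0.87), ADM with Kupffer cell and macrophage markers (0.78) and ADM with hepatocyte markers (-0.73). LN fetus L8, the highest for VEGFA, was the highest for this list, and HN fetus L3 was the lowest for both. The part of tissue handling in the VEGFA values was not tested.

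**Figure D4:**
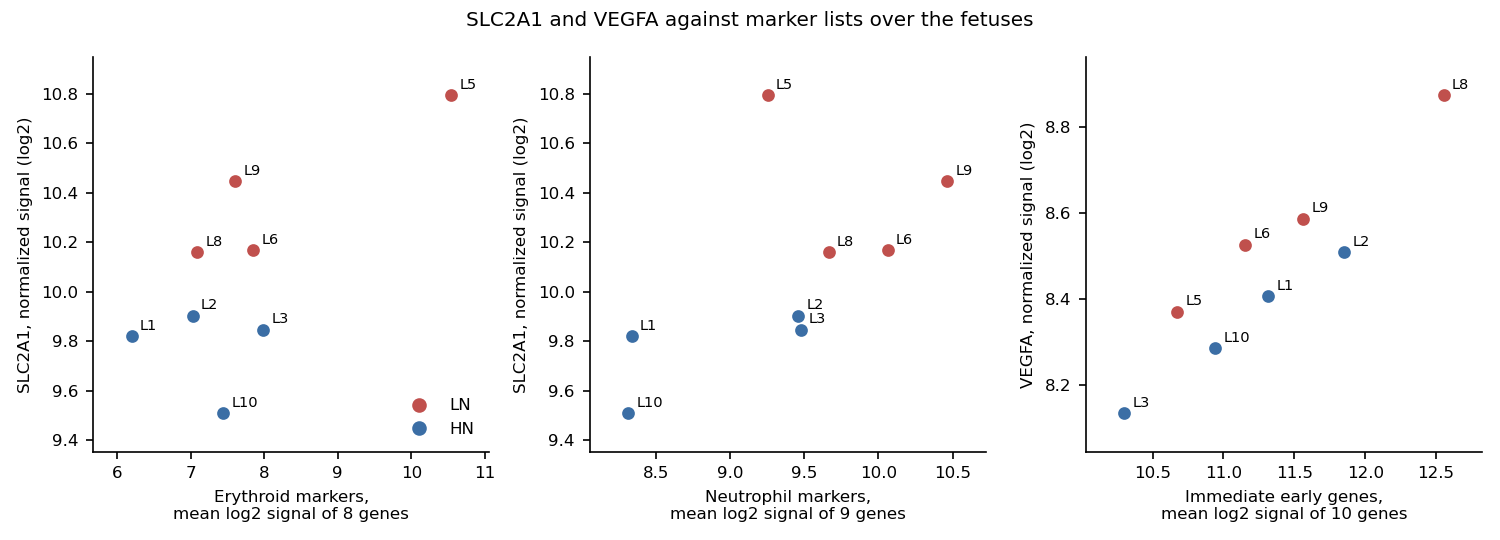
Normalized log2 signal (y axes) of SLC2A1 against the mean log2 signal of 8 erythroid markers (left x axis) and of 9 neutrophil markers (middle), and of VEGFA against 10 immediate early genes (right). Each point is a fetus, red for LN and blue for HN. L5 stands apart in the erythroid panel at 10.54, and VEGFA is higher where the immediate early genes are higher, over both groups.

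The 3 lists above and the other marker lists all overlapped between the groups. Kupffer cell and macrophage markers (9 of 10 detected, MARCO without a matched probe, C1QA and CD5L the brightest) had means between 12.34 and 12.79 in LN and between 12.07 and 13.00 in HN. Endothelial markers (10 of 10, LYVE1 and TEK the brightest) lay between 9.70 and 10.08 in LN and between 9.70 and 9.89 in HN. Stellate and mesenchymal markers (10 of 10, COL3A1 and DCN the brightest) lay between 10.88 and 11.10 in LN and between 10.47 and 11.66 in HN. Cholangiocyte markers (5 of 6, SOX9 without a matched probe, KRT19 and EPCAM the brightest) lay between 9.42 and 10.05 in LN and between 9.28 and 9.93 in HN. Lymphocyte markers (6 of 8, CD79B without a matched probe and MS4A1 not detected, CD3D and PTPRC the brightest) lay between 9.25 and 9.51 in LN and between 9.43 and 9.83 in HN. All 6 had a lower mean in LN, against 48.4% of all genes, and 0 lay past an unadjusted limma p of 0.05, against 6.05%.

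Beyond the 10, a wider set of 92 genes of the HIF pathway was listed by function, of which 84 had a matched probe and 83 were detected. EP300, HK2, ALDOC, STC2, INSIG2, CA9, CA12 and P4HB had no matched probe, and LEP was not detected. By limma, 0 of the 83 passed an adjusted p of 0.05, 51 had a higher and 32 a lower mean in LN, and the median log2 difference was 0.055. Over all genes 51.6% had a higher mean in LN, 6.05% lay past an unadjusted limma p of 0.05 and the median was 0.0075, which is the background for each list. At an unadjusted limma p of 0.05 there were 4 genes, 1 higher in LN (PDK3) and 3 lower (PDK2, PKM and COX4I2), against 3.3% of all genes higher and 2.75% lower. The groups did not overlap for PDK3 and LONP1, with LN above HN, and for PDK2, with LN below, which is 3 of 83 genes against 4.14% of all genes.

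Among genes of glucose use, 9 of 22 had a higher and 13 a lower mean in LN, and the median of their log2 differences was -0.0060. PDK2, a kinase of the same family as PDK1, read between 10.36 and 10.58 in LN and between 10.83 and 11.12 in HN. Every LN fetus lay below every HN fetus, opposite to SLC2A1. The log2 difference was -0.51 (SE 0.12, limma adjusted p = 0.734, exact permutation p = 0.0286), and it stayed between -0.55 and -0.45 with each fetus left out in turn. PDK2 had a second probe, which was above background on 2 HN arrays and on 0 LN arrays.

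PDK3, another kinase of this family, read 9.83, 9.99, 9.98 and 9.86 in LN and 9.74, 9.62, 9.73 and 9.61 in HN. Here every LN fetus lay above every HN fetus, and the log2 difference was 0.24 (SE 0.10, limma adjusted p = 0.785). Its second probe differed by 0.32, with overlap. PDK4, induced in fasting, differed by -0.40 with a standard error of 0.60, LN fetus L6 being the highest at 12.97 and LN fetus L5 the lowest, and the difference was -1.04 without L6 and -0.050 without L5. The 4 kinases of pyruvate dehydrogenase thus did not share a direction, and 0 of them passed the adjusted threshold.

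PKM, the pyruvate kinase of glycolysis outside the adult liver, read 9.41, 9.61, 9.43 and 9.07 in LN and 9.59, 9.87, 9.55 and 9.98 in HN. The groups overlapped through L6, and the log2 difference was -0.36 (SE 0.16, limma adjusted p = 0.785). Its other probes differed by -0.51, without overlap, and by -0.75, with overlap. SLC2A3, the glucose transporter GLUT3, differed by 0.30 (SE 0.33) and by -0.0042 without L9. The liver isoform PFKFB1 differed by -0.00083 (SE 0.34) and PFKFB2 by -0.059.

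**Figure D5:**
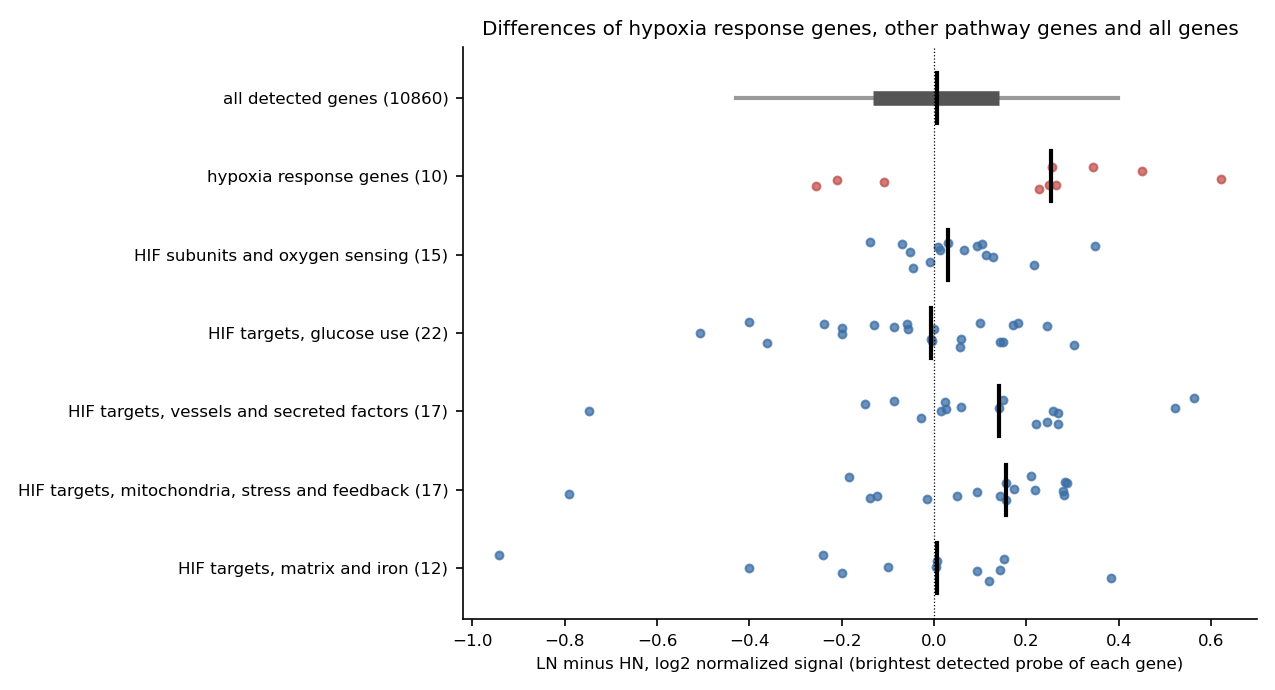
Log2 difference between LN and HN (x axis, LN minus HN, brightest detected probe) of the 10 hypoxia response genes and of 5 lists of other HIF pathway genes (y axis, number of detected genes in brackets). Points are genes and black bars the medians of the lists. The top row gives all 10860 detected genes, as a thick bar from the 25th to the 75th percentile (-0.13 to 0.14) and a thin bar from the 5th to the 95th, and most listed genes lie within the thin bar.

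Among the HIF subunits and the genes of oxygen sensing, 10 of 15 had a higher and 5 a lower mean in LN, with a median of 0.029, and 0 lay past an unadjusted limma p of 0.05. EPAS1, the HIF-2 alpha subunit, differed by 0.10 (SE 0.16) and by 0.0084 without L9 and 0.21 without L5, and ARNT, the common partner, by 0.093 (SE 0.33) and by -0.16 without L6. The second probe of ARNT differed by -0.061. HIF3A, a further alpha subunit, differed by 0.35 (SE 0.24, limma adjusted p = 0.830), with LN fetus L6 the highest at 14.51 and HN fetus L2 the lowest at 13.27. Without L6 its difference was 0.18, and without L5 it was 0.52. The hydroxylases EGLN2 and HIF1AN differed by -0.045 (-0.085 without L9, -0.020 without L8) and 0.22 (0.019 without L3, 0.35 without L6). The other probes of EGLN2 both differed by -0.21, and its difference reached -0.15 among the processing alternatives. VHL, which takes hydroxylated HIF to the proteasome, differed by 0.13 (0.37 for its second probe). OS9, a binding partner of HIF1A, differed by -0.14 (-0.080 without L5).

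Genes of vessels and secreted factors had a higher mean in LN for 13 of 17 (51.6% of all genes) and a lower one for 4, with a median of 0.14 (0.0075 over all genes) and 0 past an unadjusted limma p of 0.05 (6.05% of all genes). KDR, the main receptor of VEGFA, differed by 0.24 (SE 0.23), by 0.078 without L6 and by 0.37 without L9. Its second probe differed by 0.031. ANGPTL4, which restrains lipoprotein lipase and is also a target of fasting signals, differed by -0.75 (SE 0.59), with HN fetuses L2 and L10 at 11.28 and 10.96 and all other fetuses between 8.65 and 9.33. Without L2 it differed by -0.30, and without L3 by -1.17.

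Genes of mitochondria, stress and feedback had a higher mean in LN for 12 of 17 (51.6% of all genes) and a lower one for 5, with a median of 0.16. COX4I2, a cytochrome c oxidase subunit used at low oxygen, read 2.45, 3.10, 3.83 and 3.13 in LN and 4.19, 3.91, 3.54 and 4.03 in HN. It lay close to the background, with 3 LN and 4 HN arrays above it, and the groups overlapped through L8 and L3. LN and HN differed by -0.79 (SE 0.28, limma adjusted p = 0.760), and -0.17 after another background correction (normexp). HIGD1A, a mitochondrial protein induced in hypoxia, differed by 0.28 (SE 0.14, limma adjusted p = 0.787), RORA, a nuclear receptor, by 0.28 (0.12 without L6), and BNIP3L, the paralog of BNIP3, by 0.050. LONP1, the mitochondrial protease, differed by 0.093, and its groups were barely apart.

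Genes of matrix and iron handling had a higher mean in LN for 7 of 12 and a lower one for 5, with a median of 0.0059 and 0 past an unadjusted limma p of 0.05. LOX, which crosslinks collagen, differed by -0.40 (SE 0.20, limma adjusted p = 0.787). P4HA1, a collagen prolyl hydroxylase, differed by 0.38 (SE 0.29), and CP, the plasma ferroxidase ceruloplasmin, by -0.94 (SE 0.67), with its fetuses spread from 9.20 to 12.60 over both groups. P4HA1 differed by 0.20 without L10, and CP by -0.50 without L6 and -1.38 without L5. The other probes of P4HA1 differed by 0.099 and 0.11.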

How the data were processed

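Scanner output of 8 single-colour Agilent arrays was used. The authors' software (Agilent Feature Extraction 11.0.1.1) gave each spot a deposited intensity that was background-subtracted and detrended within the array, without normalization between arrays. A table of log2 values of 31068 probes, quantile normalized by the authors, was also deposited. Its columns share a median of 8.07, it lies within 0.042 of quantile normalized log2 intensities of the same probes, and it served as an alternative.

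Log2 intensities, without outlier spots and averaged per probe, were quantile normalized over 43637 probes. A probe above background on 4 or more arrays counted as detected (33439 probes). RefSeq accessions of 26740 probes matched 12603 genes in RefSeq (assembly ARS-UCD2.0, for names only). The groups were tested with limma 3.58.1 (R 4.3.3, 2-sided, Benjamini-Hochberg over all detected probes). By this test 0 of 33439 probes passed 0.05 and 2113 had an unadjusted p below it. Exact permutation tests were 2-sided. The model was tested on simulated data.

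The members, lists and tests were chosen with earlier results of these data known. Of the pathway lists, the text names the 3 genes per list with the lowest p and the paralogs and partners of members, with the 2 brightest genes of each marker list. LONP1, ALB, LTF, MPO and CATHL4 were named after their values were seen. For 1 further gene under this rule the result is not reported here, and it stays in the counts. Alternatives were 75th percentile scaling, normexp (offset 50, on spot medians), the authors' table, other filters, eBayes with trend, slide position as a block, the mean over probes, each fetus left out and, chosen after seeing the data, array brightness as a covariate.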

Additional observations from a re-analysis of the deposited data

Results flagged for a closer look

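In 96 groups of 4 fetuses checked for a value far from the rest, 3 had one, and chance alone flags about 1 in 20 such groups. A second probe of PDK1 read 7.28 in HN fetus L3, against 7.08 to 7.10 in the other HN fetuses. The second probe of PFKFB3 read 7.85 in the same fetus, against 8.05 to 8.08 in the others. HIF3A read 13.27 in HN fetus L2, against 13.75 to 13.83 in the others.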

How the results depend on the processing

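The count of hypoxia response genes past an adjusted limma p of 0.05 was 0 in all 17 alternatives, and so was that of the other pathway genes. At an unadjusted p of 0.05, 2 of the 10 genes lay past the threshold as reported. The count was 3, with EGLN1 added, under 75th percentile scaling, normexp, the authors' table, no filter, detection on all arrays and eBayes with trend. It was 1 with slide position as a block, where HIF1A was lost. The share of all genes past this p moved as well, from 6.05% as reported. In the order named it was 7.12%, 7.89%, 6.2%, 7.32%, 6.18% and 6.76%, and 4.61% with the block. The block also left 1 of the other pathway genes (PDK2), against 4 as reported, and PDK3, PKM and COX4I2 were lost. With each fetus left out in turn, these counts ran from 1 to 3 and from 2 to 6, the genes higher in LN from 6 to 8 and from 44 to 57, and the median differences from 0.12 (without L6) to 0.34 (without L5) and from 0.0084 (without L9) to 0.077 (without L5). The count of the 10 genes was 1 without L6, L9, L2 or L10.

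SLC2A1 stayed between 0.49 and 0.73 and HIF1A between 0.21 and 0.36 in all 17 alternatives, with adjusted p between 0.31 and 1.00 and between 0.41 and 1.00. PFKFB4 had no value in the authors' table or when detection on all arrays was asked. Directions turned as follows, and the cause was not tested. With 75th percentile scaling ARNT differed by -0.096, PFKFB1 by 0.013 and VHL by -0.057. With normexp BNIP3L differed by -0.010 and PFKFB1 by 0.015, with the mean over probes PFKFB1 by 0.021, and with brightness as a covariate ARNT by -0.043. Without L5 BNIP3L was at -0.037 and PFKFB1 at 0.13. Without L6 EGLN3 was at -0.0097, ARNT at -0.16 and PFKFB2 at 0.051. Without L8 PDK1 was at 0.081 and PFKFB1 at 0.078. Without L9 SLC2A3 was at -0.0042 and VHL at -0.019. Without L1 BNIP3L was at -0.014 and PFKFB1 at 0.18. Without L2 PFKFB4 was at -0.086, ARNT at -0.045 and PFKFB2 at 0.0043, and without L3 PFKFB1 was at 0.18. Leaving out 1 fetus at a time gave at the other end 0.55 for EGLN3, -0.21 for PDK1, 0.67 for PFKFB4, 0.37 for ARNT, 0.16 for BNIP3L, -0.27 for PFKFB1, -0.16 for PFKFB2, 0.57 for SLC2A3 and 0.30 for VHL. No paired analysis was possible by replicate number, because the groups share none, and the block by slide position sets 1 LN beside 1 HN array at each of the 4 positions. Dim probes such as those of PFKFB4 and COX4I2 lie near the background, which limits what their differences show.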
